A study of Drosophila melanogaster with 24 samples.

Results

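The values described here are the transcript levels of plain S2 cells at baseline, taken from the 3 replicates of the mix written S2/S2, which are 3 of the 24 arrays of the series. The members were chosen by their label alone, and no other mix entered any value below. The series mixed S2 populations in 8 combinations and read their RNA on a Drosophila expression array. The populations were plain or expressed NFull, NDCterm, Dl or DlDI, read here as forms of the receptor Notch and of its ligand Delta. In S2/S2 both populations were plain S2 cells with no construct named, and they were left together for 45 minutes. Each replicate pooled RNA of 2 independent samples. The labels named no heat, metal, hormone or immune stimulus and no culture medium for these cells, and the 3 arrays limit the precision of every value.

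S2 is an established cell line made from late embryos of the fruit fly Drosophila melanogaster, and it is widely taken to resemble blood cells (hemocytes), above all the macrophage-like plasmatocytes. Plasmatocytes are specified by GATA transcription factors, engulf dead cells and microbes through surface receptors, secrete basement membrane and survive through a growth factor receptor. The line divides continuously, is of male origin and is the standard fly line for RNA interference.

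The labels disagreed in 2 ways. The title and source of all 3 arrays also named epidermal tissue of late embryos, whereas the mix name gave S2 cells. The description of the third replicate bore the number of the second, and the title was followed. Arrays 2 and 3 shared 0 identical values, so they were not copies of one file.

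Each value was a linear fluorescence signal in arbitrary units, and the 3 arrays as deposited shared 1 common trimmed mean. The level of a gene was the mean of the 3 signals of its brightest probe set, given ± SD with n = 3 throughout, and 3 values in a row stand for replicates 1, 2 and 3. Signals of different probe sets also depend on their probes, so genes were placed only in broad classes of level. Background was set on each array by 185 probe sets of 165 odorant, gustatory and ionotropic receptor genes, which are best known from sensory neurons. The bound was the 95th percentile of the signals of these probe sets, and lay at 19.4, 33.4 and 18.7 in replicates 1, 2 and 3. The highest mean among the 165 genes was 198, so the reference held a member well over the bounds. Replicate 2 had the highest bound and also the highest array median, 20.9 against 11.6 and 11.2. Spiked and control probe sets differed between the arrays as well. The bacteriophage cre control read 21459, 11903 and 18219.8, and the 18S ribosomal RNA control read 1213, 2302 and 1296. The ratio of the 3' to the 5' control probe set was 2.71, 2.77 and 2.97 for GAPDH and 2.53, 1.90 and 2.24 for actin. These 2 controls thus read higher toward the 3' end on all 3 arrays. The part of these array features in the results was not tested.

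Of 11981 genes measured by a probe set of their own, 5713 (47.7%) were above background in all 3 replicates, 5201 (43.4%) in none, and 1067 (8.91%) in 1 or 2 replicates. The single arrays held 6266, 6177 and 6139 genes above their bounds. The median signal was 261 over genes above background and 6.56 over genes above it on no array. A mean signal of 1000 or more was reached by 748 genes (6.24%), and these held 57.3% of the signal summed over all genes. A signal from 100 to 1000 was found for 3865 genes, and 1102 genes were above background at under 100. The RNA came from whole cultures, so fewer cells that make a transcript and less of it per cell cannot be told apart.

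**Figure D1:**
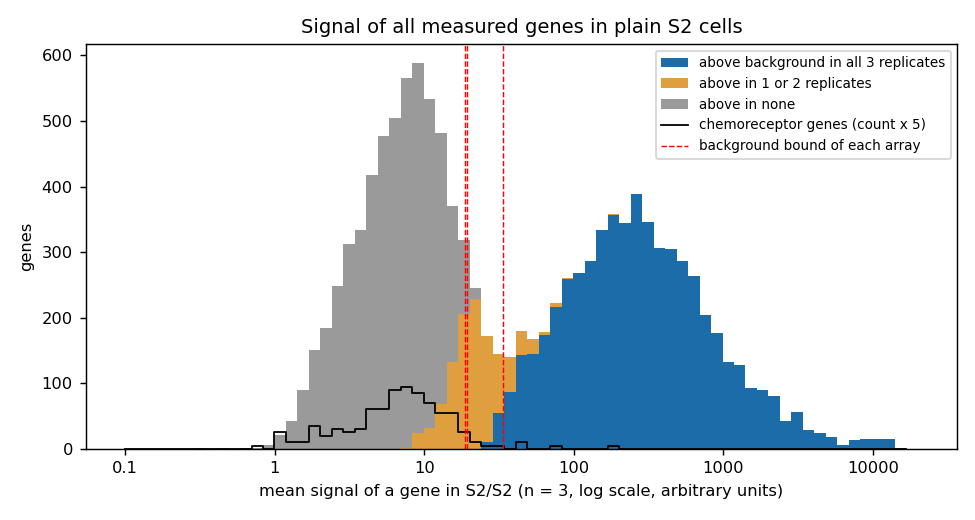
Number of genes (vertical axis) by mean signal in S2/S2 (horizontal axis, log scale, arbitrary units, n = 3), coloured by how many replicates exceeded the background bound. The distribution has 2 peaks, the chemoreceptor genes (black line, counts multiplied by 5) lie under the lower one, and the dashed lines mark the bounds of the 3 arrays at 19.4, 33.4 and 18.7.

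Among genes with a probe set of their own, the most abundant transcripts were those of the ribosome. Probe sets that named several genes or none, and control probe sets, were not ranked. Of the 30 genes with the highest mean signals, 24 encode cytoplasmic ribosomal proteins, and the 30 together held 10.2% of the summed signal. Their means ran from 10136 to 14817, and none of the 30 had a lowest replicate under 0.755 of its highest. RpLP1, which forms part of the stalk that recruits elongation factors, read 14551, 12326 and 13653 in replicates 1, 2 and 3. The small basic protein RpL41 read 14744, 12141 and 13626, and RpS26 of the small subunit read 14662, 12590.4 and 13122. All of these were highest in replicate 1 and lowest in replicate 2. Over the ribosomal proteins above background, 29 of 33 were highest in replicate 1 and 30 were lowest in replicate 2, against 37.1% and 29.9% of all genes above background.

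The 6 other genes among the 30 were Hsp26, Hsp68, eEF5, CG5953, tsr and Hsp27. The translation factor eEF5, which helps ribosomes past stalling peptides, read 13564, 12029.6 and 12379 (mean 12658 ± 804). The actin-severing protein cofilin, encoded by tsr, read 12016, 11343 and 12427 (mean 11929 ± 547). CG5953, a gene without a descriptive name in the annotation, read 13594, 10878 and 11409. The replicates of these genes lay close together, within the range of the ribosomal proteins. Further genes of high signal, named after their values were seen, were Moe, the membrane-to-actin linker moesin (mean 9636 ± 1132), and Arc1, which encodes a protein related to retrotransposon capsids (mean 8568 ± 2133).

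Heat shock genes stood at the very top although no heat treatment was named. Hsp26, a small chaperone that holds unfolded proteins and is strongly induced by heat, had the highest mean of all 11981 genes. It read 15937, 14063 and 14449.9, a mean of 14817 ± 989.5. Hsp68, a heat-inducible member of the Hsp70 family, read 14345, 11449.5 and 12394 (mean 12729.8 ± 1477). Hsp27, another small chaperone, read 11976, 10133 and 9945 (mean 10685 ± 1122). For each of these 3 genes replicate 1 was the highest, and the replicates lay close together near or above the level of the ribosomal proteins.

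The Hsp70 genes lie in near-identical copies and were read by shared probe sets, so the copies cannot be told apart. The brightest probe set of Hsp70Aa and Hsp70Ab read 14269, 9683 and 10331. The brightest of Hsp70Ba, Hsp70Bb, Hsp70Bbb and Hsp70Bc read 14399, 8333 and 8986. A second probe set annotated to the same 4 copies was far lower, at 819, 162 and 31.3, so probe sets of these copies disagreed. The brightest probe set shared by Hsp22, a mitochondrial small chaperone, and CG4456 read 10958, 7984 and 9452, and another probe set annotated to the same pair read 12.3, 7.22 and 12.2.

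The chaperones that cells make without stress were high too. Hsc70-4, the main cytosolic Hsp70, read 7227, 8573 and 9172, and Hsc70-3, its counterpart in the endoplasmic reticulum, read 5411, 6301 and 7420.3. The mitochondrial chaperones Hsc70-5 and Hsp60A had means of 6972 ± 1479 and 4459.8 ± 1307. DnaJ-1, an Hsp40 partner of Hsp70, read 11706, 6890.1 and 8239, highest in replicate 1. Of the 15 chaperone genes measured, of 23 named, 10 were above background (47.7% of all genes were), and the copies Hsc70-2, Hsp60B and Hsp60C were above it on no array, at means of 4.59, 15.6 and 3.58.

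3 further genes of this kind were named after their values were seen. The co-chaperone starvin, encoded by stv, read 2749, 2838 and 1019.5, and Hsp110, a nucleotide exchange factor of Hsp70, read 391, 940.2 and 918. The noncoding alphagamma-element transcript CR32865, from a repeat that is transcribed after heat shock beside the Hsp70 genes, read 8538, 5797 and 5191. Hsf, the transcription factor of the heat shock response, read 339.7, 529 and 429.5, a moderate level without a replicate apart. The metallothioneins, which bind copper and zinc, were split. MtnA read 8132, 5902 and 1192, with replicate 3 well under the others, whereas MtnB and MtnC were above background on no array (means 4.41 and 5.67) and MtnD on 1 (mean 12.03). MTF-1, the factor that senses metal at metallothionein genes, had a mean of 345 ± 43.98. Whether temperature, medium or handling moved with these levels was not tested, since the labels do not give them.

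**Figure D2:**
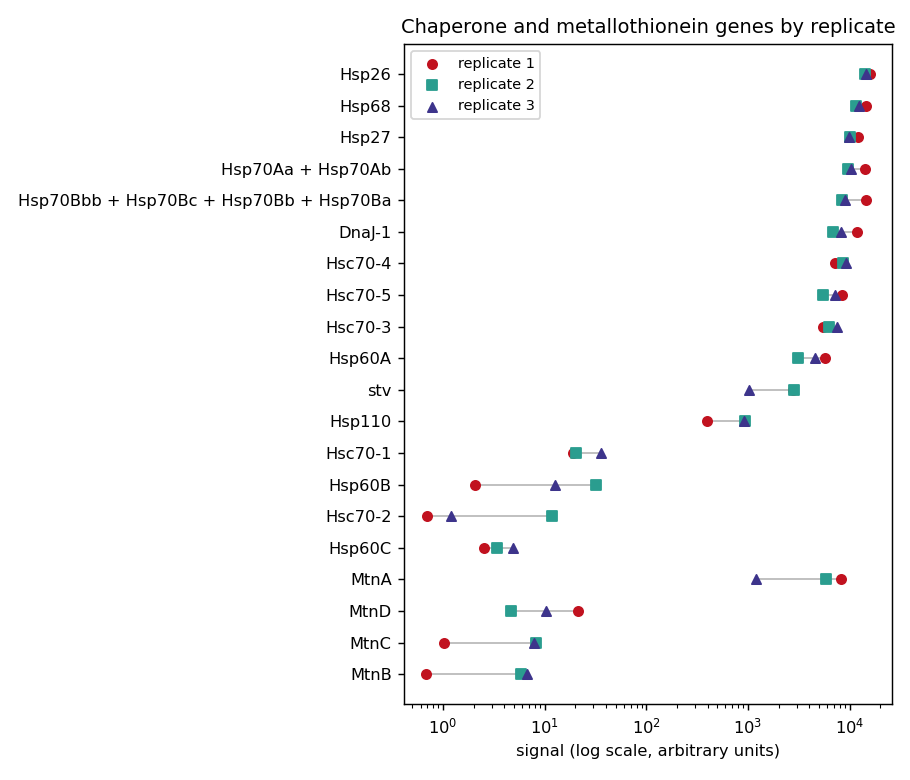
Signal of chaperone and metallothionein genes in each of the 3 replicates (horizontal axis, log scale, arbitrary units; 1 symbol per replicate, grey line from the lowest to the highest). The heat-inducible genes at the top lie at the upper end of the scale in all replicates, MtnA spans 8132 to 1192, and MtnB and MtnC lie under 10.

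Most listed plasmatocyte markers were above background, and no listed epidermis marker was so in all 3 replicates. The marker lists were chosen with earlier results of these data known. Their shares are therefore no independent test of cell identity. Of 16 plasmatocyte markers, 12 (75%) were above background in all replicates, against 47.7% of all genes. Pvr, the receptor for PDGF- and VEGF-like factors that keeps hemocytes alive, read 1468, 1703 and 1436 (mean 1536 ± 146). The GATA factor gene srp, needed to make hemocytes, read 620.0, 602 and 577 (mean 599.7 ± 21.4). Its cofactor ush read 686, 1435 and 1088, with a wider range. Pxn, an enzyme that crosslinks collagen IV, read 306, 806 and 755, with replicate 1 lowest. The collagen IV chains Col4a1 and vkg had means of 540.1 ± 125 and 318 ± 136.

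Not all plasmatocyte markers were found. Hml, the hemocyte coagulation protein that is the usual driver gene for plasmatocytes, was above background on no array (mean 8.79), as were emp (14.3) and Sr-CI (1.74), both of the scavenger receptor kind. NimC1, a phagocytosis receptor, read 154, 29.2 and 8.01 and passed the bound on 1 array only. Of 9 markers of the other 2 hemocyte types, crystal cells and lamellocytes, 5 (55.6%) were above background, a share near the 47.7% of all genes. They were led by mys (mean 3213 ± 717) and msn (589 ± 144), which many tissues express. The crystal cell regulator lz (mean 10.4), the prophenoloxidase gene PPO1 (5.80) and the lamellocyte surface gene atilla (9.77) were above it on no array. PPO2 and PPO3, the other prophenoloxidase genes, were low but above background at 83.9 ± 23.8 and 86.9 ± 17.3.

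None (0) of 12 epidermis and cuticle markers was above background in all 3 replicates. The cadherin gene shg, which holds epithelia together, had a mean of 7.29, the epidermal factor grh 9.05, and the chitin synthase gene kkv 8.13. The pigment gene y read 64.3, 19.1 and 21.7 and ovo read 33.4, 19.9 and 34.6, each above the bound on 2 arrays. Of 97 cuticle protein genes, 2 (2.06%) were above background, the larger being TwdlK at 53.2 ± 48.1. Of the 165 sensory receptor genes that set the bound, 5 (3.03%) passed it in all 3 replicates. The epidermal source in the labels was thus not borne by the markers listed here on these arrays.

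Markers of other tissues differed in how many were found. Of muscle and fat body markers, 0 of 10 and 0 of 9 were above background. Of 12 neuron markers 1 was, elav, which encodes an RNA-binding protein of neurons, at 247, 217 and 154 (mean 206 ± 47.8). Of 8 glia markers 4 (50%) were, a share near the 47.7% of all genes, with loco, a regulator of G proteins, at 945 ± 210.3 and the barrier receptor moody at 597 ± 154. The defining glial factors repo and gcm were not, at means of 13.7 and 1.46. Of 13 germline markers 4 (30.8%) were, led by aub (mean 634 ± 48.7), and vas and bam were not (7.79 and 12.9). Of 14 testis genes 1 was, mia, at 164 ± 15.3, a factor that works at testis promoters. Accessory gland proteins gave 1 of 21 (4.76%), Acp95EF at 79.9 ± 27.8, against 3.03% of the sensory receptor genes that set the bound.

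The transcription regulators came to 256 genes in 12 lists, and 101 of them (39.5%) were above background in all replicates, against 47.7% of all genes. The share differed widely between kinds. All 15 factors of the NF-kappaB, STAT and stress list and all 21 insulator and chromatin proteins were above background, whereas 5 of 53 homeodomain factors outside the Hox group and 1 of 28 Hox and segmentation factors were.

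Among the blood and GATA factors was pnr, a GATA factor best known from the dorsal thorax and heart. It read 1221, 1152 and 1225, a mean of 1199.7 ± 40.98, with a narrow range. The related gene GATAd had a mean of 341 ± 44.2. GATAe passed the bound on 1 array (mean 14.8), and grn on none (5.25). Of the Runx family, lz, RunxA and RunxB were above background on no array, but Bgb, the partner that lets Runx proteins bind DNA, read 248, 252 and 248. Bro, the other partner gene, was not (4.08).

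Factors of stress and immune signalling were all above background, and 11 of the 15 had a mean of 100 or more. The median over the list was 409.9, and 258 with the median of the probe sets of a gene in place of the brightest, against 261 over all genes above background. The gene crc, which encodes the fly ATF4 of the integrated stress response, read 5964, 3918 and 4839 (mean 4907 ± 1024). Irbp18, a C/EBP-like protein that pairs with it, had a mean of 1282 ± 422. The AP-1 subunit Fos, encoded by kay, read 1699, 2353 and 2272, and Jun, encoded by Jra, read 504, 1030.4 and 982. Rel, the NF-kappaB factor of the Imd pathway, read 1036, 3635 and 3287, and replicate 1 lay under the others. The Toll pathway factors dl and Dif had means of 356 ± 151 and 45.9 ± 15.5, and their inhibitor cact 460.0 ± 60.3. Stat92E, the STAT factor of the fly, read 895, 1364 and 1079. For oxidant stress, cnc (the fly Nrf2) and its partner maf-S had means of 514 ± 194 and 1365 ± 119.7.

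Of the 40 bHLH factors, 14 (35%) were above background, against 47.7% of all genes. The repressor hry, known from embryonic segmentation, read 3691, 3789 and 5021, and was the 1 member of the Hox and segmentation list above background. Daughterless, encoded by da, the broad partner of tissue-specific bHLH proteins, had a mean of 1473 ± 88.8, and emc, which blocks such pairs, 1147 ± 209. SREBP, the factor for lipid synthesis genes, had a mean of 1440.4 ± 91.6. The proneural and myogenic members were above background in all replicates in no case: sc, amos and nau had means of 8.13, 8.24 and 7.21, and ato, at 19.8, passed the bound on some arrays. Of the clock pair, cyc was above background (mean 147 ± 26.9) and Clk was not (7.52), while the clock repressor cwo read 636, 949.7 and 709.7. The zinc finger gene cbt, of the Krueppel-like kind, read 1369, 2798 and 2780.5, with replicate 1 lowest. Also in that list were ken (605 ± 23.01) and luna (569 ± 61.2).

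Nuclear receptors, which mostly bind small lipophilic hormones, gave 7 of 20 (35%), against 47.7% of all genes. The RXR homologue usp read 798, 607 and 748 (mean 718 ± 99.5). Its partner in the ecdysone receptor, EcR, read 63.99, 33.3 and 45.4, and was just under the bound on the second array. Others above background were ftz-f1 (493 ± 32.2), Hnf4 (486 ± 88.2), Hr78 (433 ± 28.3), Hr96 (223 ± 46.2), Hr39 (143 ± 32.1) and ERR (29.8 ± 14.4). The early ecdysone genes Eip78C and Hr3 were not, at 8.04 and 3.92, nor were kni and tll (2.81 and 1.91).

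The homeodomain factors above background were ap, zfh1, ct, zfh2 and vis. The LIM factor ap, known for the dorsal wing, read 1120.1, 669.6 and 1124. The zinc finger homeodomain factor zfh1, which is expressed in embryonic hemocytes, read 805, 801 and 612. The factor ct read 266, 195 and 177, and both others were under 100. No Hox gene was above background: Antp, the nearest, had a mean of 16.4. Of 22 ETS and Forkhead factors 7 (31.8%) were above background, against 47.7% of all genes. They were led by the repressor aop (708 ± 24.9) and the hemocyte-linked jumu (571 ± 196), and foxo was low at 87.6 ± 10.6. Among pathway effectors, yki of the Hippo pathway (873 ± 52.4), the BMP factor Mad (282 ± 20.1) and the corepressor gro (281 ± 6.67) were above background, and the Hedgehog effector ci, at 19.9, 32.2 and 28.7, was not so in every replicate.

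Chromatin and cell cycle factors were above background with 1 exception in these 2 lists, Rbf2 (mean 29.8). The remodelling ATPase brm read 662, 936 and 965. The insulator proteins BEAF-32, Cp190, su(Hw) and CTCF had means of 357 ± 11.6, 734 ± 83.4, 304 ± 37.4 and 144 ± 21.3. The Polycomb group genes E(z), Pc and Psc had means of 112 ± 19.8, 129 ± 4.65 and 109.7 ± 15.2. Dref, which drives replication genes, read 495, 611 and 600.3, and E2f2, Dp and Rbf had means of 265 ± 20.3, 451 ± 46.4 and 149 ± 51.2. Of 24 cyclin and replication genes 22 (91.7%) were above background, against 47.7% of all genes. PCNA, the sliding clamp of replication, read 1287, 1477 and 1198.

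The receptors, channels and adhesion genes came to 267 in 15 lists, and 67 (25.1%) were above background, against 47.7% of all genes. Of 18 receptor tyrosine kinases, 4 were: Pvr, InR, Eph and dnt. The insulin receptor InR read 262, 131 and 154 (mean 182 ± 69.7), and the ephrin receptor Eph 172, 167 and 133. The Wnt-binding pseudokinase dnt was under 100 (mean 68.2 ± 26.3). The epidermal growth factor receptor Egfr was above background on no array (mean 6.70), and neither were the fibroblast growth factor receptors htl and btl (7.79 and 4.69) or Alk (1.73).

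The TGF-beta family was nearly complete. The type II receptor put read 635, 773 and 852, the type I BMP receptors sax and tkv read 532, 605 and 804 and 253, 154 and 242, and the type I activin receptor babo read 331, 280.2 and 281. The second type II receptor, wit, which acts at motor nerve endings, was above background on no array (mean 8.27). For Hedgehog, the signal transducer smo (352 ± 35.2) and the coreceptors boi (601 ± 322) and ihog (103 ± 9.74) were above background, and the ligand-binding receptor ptc was not (13.97). The glypican dlp read 140.1, 71.03 and 31.8, a wide range.

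Of the cytokine receptors, dome, the receptor of the JAK/STAT pathway, read 147, 166 and 204. The TNF receptor wgn read 642, 693 and 821 (mean 718 ± 92.4), and grnd, the other TNF receptor, was above background on no array (3.46). Their ligand egr was above background as well, at 675 ± 162. Of 11 Toll, peptidoglycan and glucan recognition genes, 8 (72.7%) were above background, against 47.7% of all genes. Among them were Tl itself (108 ± 50.1), 18w (307 ± 142) and PGRP-LA (172 ± 18.1). Of 22 scavenger and engulfment receptors 6 (27.3%) were above background. They were led by the immunoglobulin receptor Dscam1 (980.2 ± 154), pes (464 ± 112) and crq (287 ± 55.8). Of the 10 antimicrobial peptide genes measured, of 22 named, Drs and CecB were above background, both at low means of 89.4 ± 25.1 and 77.1 ± 44.4.

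For the Notch pathway, 7 of 9 genes measured (77.8%), of 15 named, were above background, against 47.7% of all genes. Notch and Delta themselves were not among these 9. The 7 above background were Psn (738 ± 65.7) and pen-2 (302 ± 38.4) of the gamma-secretase, the protease kuz (568 ± 73.5), the fucosyltransferase O-fut1 (532 ± 226), the repressor H (455 ± 73.9), and the ubiquitin ligases dx (262 ± 42.6) and neur (54.4 ± 8.13). The glycosyltransferase fng, which tunes ligand choice, read 19.5, 44.4 and 11.3, and the coactivator mam read 38.4, 27.5 and 15.5. Neither was above its bound on all arrays.

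Of the adhesion genes, the integrin beta chain mys read 3645, 2385 and 3609 (mean 3213 ± 717), and the alpha chain mew was above background at 105 ± 35.99. The alpha chain if was not (16.4), and scb read 12.7, 67.7 and 36.7, which passed on 2 arrays. Among tetraspanins, small membrane organizers, 13 of 32 (40.6%) were above background, against 47.7% of all genes. Tsp42Ee read 5718, 5630.0 and 6066, and Tsp42Ed read 2222, 1719 and 2189, while neighbours of the same gene cluster such as Tsp42Eh and Tsp42Er were at 10.1 and 4.75. None (0) of 43 immunoglobulin genes of the dpr, DIP and beat families, which pair neurons, was above background.

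Receptors of nervous and endocrine signals were mostly not above background. None (0) of 24 neuropeptide and hormone receptors and 0 of 21 amine and transmitter receptors was above background in all replicates. Of 23 transmitter-gated channels 3 were, all nicotinic acetylcholine receptor subunits. The subunit nAChRbeta3 read 101, 185 and 283, nAChRalpha4 read 219, 164 and 113, and nAChRalpha5 was near the bound (31.1 ± 10.9). Of 24 voltage-gated and calcium channels 6 (25%) were above background, against 47.7% of all genes. The potassium channel Irk1 read 442, 525 and 805. The store-operated calcium entry set was present, with the sensor Stim at 487, 459 and 485, the pore Orai at 135, 300.2 and 217 and the release channel Itpr at 119.6, 128 and 105. The sodium channel para and the calcium channel cac were not above background (8.23 and 10.2).

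**Figure D3:**
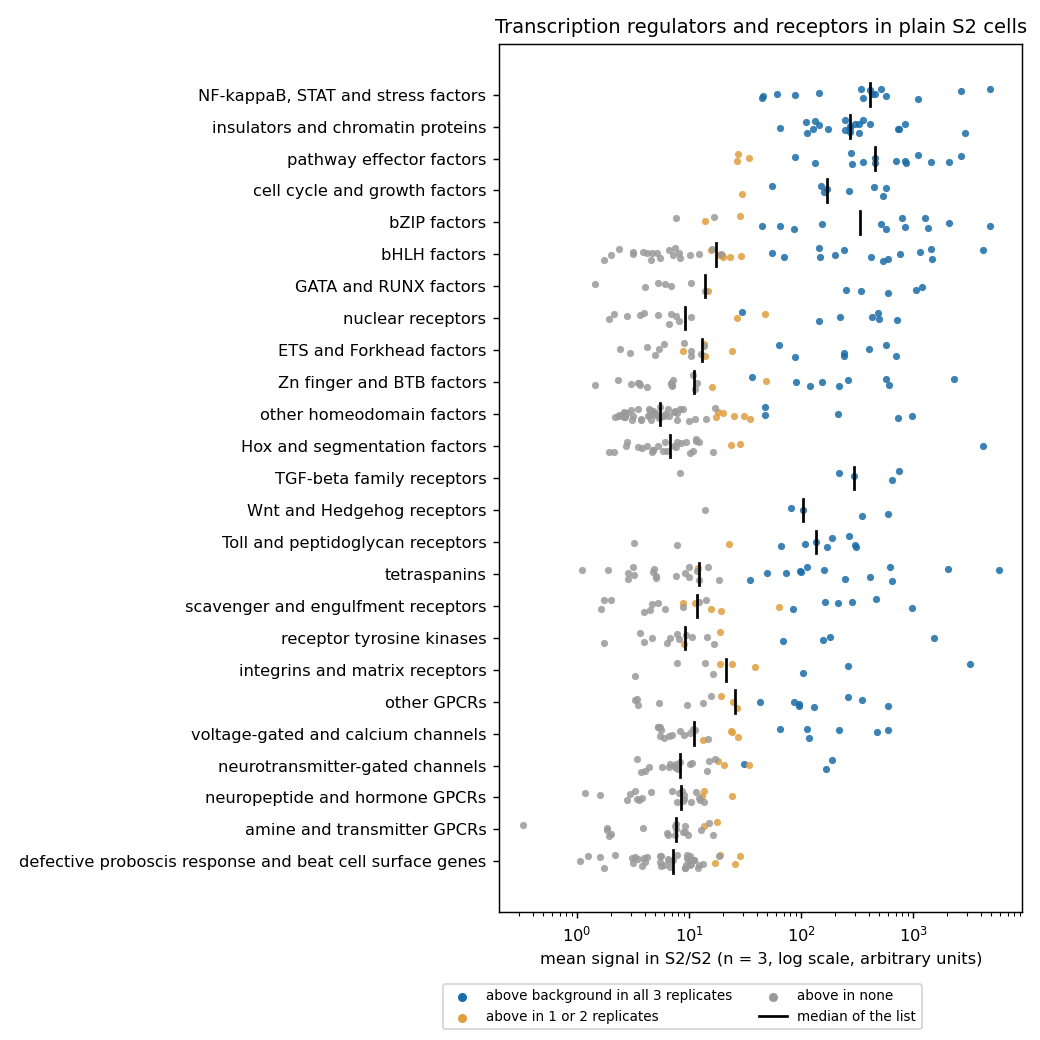
Mean signal (horizontal axis, log scale, arbitrary units, n = 3) of each member of 25 lists of transcription regulators and receptors, with 1 dot per gene coloured by how many replicates were above background and a black bar at the median of the list. The NF-kappaB, STAT and stress factors and the chromatin proteins lie entirely above background, and the homeodomain, Hox, neuropeptide receptor and dpr lists lie almost entirely in the background range.

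The enzymes came to 380 genes in 18 lists, and 193 (50.8%) were above background, a share near that of all genes (47.7%). Of the central pathways, the citrate cycle and glycolysis had most of their measured genes above background. All 15 citrate cycle genes measured, of 19 named, were above background, from Men-b at 421 ± 86.7 to mAcon1 at 2051 ± 715. Of 11 glycolysis genes measured, of 15 named, 9 were, and the alternative copies Hex-C and Pglym87 were not so in every replicate (14.3 and 16.96). Enolase, encoded by Eno, read 4967, 2170.3 and 2922, aldolase, Ald1, read 3853, 1585 and 2371, and phosphofructokinase, Pfk, read 1105, 309.6 and 443. In 8 of the 9 genes replicate 1 was highest, and in 8 replicate 2 was lowest, against 37.1% and 29.9% of all genes above background. The pentose phosphate and gluconeogenesis list gave 6 of 10. Its transaldolase gene Taldo read 2761, 2332 and 2082, whereas G6P, Pepck2 and the trehalose synthesis gene Tps1 were above background on no array (14.2, 9.50 and 9.30), and fbp read 54.7, 22.2 and 25.96.

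All 7 mevalonate pathway genes measured were above background, against 47.7% of all genes. Hmgs, an early enzyme of the route, read 1758, 846 and 1246. Flies make isoprenoids but no sterols of their own. Of 19 lipid genes 14 (73.7%) were above background. Pect, which makes phosphatidylethanolamine, the main membrane lipid of flies, read 3333, 4067 and 3910.5. The fatty acid synthase FASN1 read 1995, 2255 and 2275 and the desaturase Desat1 2631, 1761 and 2456, while the synthase copies FASN2 and FASN3 were above background on no array (2.55 and 4.28). The lipid droplet protein gene Lsd-2 was not above it either (5.96), and Lsd-1 read 178, 56.3 and 50.5.

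Nucleotide synthesis gave 15 of 17 (88.2%), against 47.7% of all genes. Adss of the AMP branch read 4869, 3445 and 3387 and Paics of the purine route 1036, 2136 and 1319. The ribonucleotide reductase subunit RnrL read 1020.5, 1135 and 885. The second copy of the first purine enzyme, Prat2, was above background on no array (14.9), and Prat had a mean of 494 ± 40.8. All 15 signalling genes measured in the protein kinase list, of 31 named, were above background. They included S6k (1660.1 ± 163), the JNK gene bsk (1013 ± 76.99), Akt (540.4 ± 76.7) and the JNK phosphatase puc, which read 898, 2309 and 1819.

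Of 16 lysosomal genes 11 (68.8%) were above background, against 47.7% of all genes. Levels ranged widely, and the median over the list was 317. CtsL1, the cysteine protease cathepsin L, read 8165, 9823 and 10445 (mean 9478 ± 1179), and the membrane protein Lamp1 read 8569, 6324 and 7194. The proteases CtsF, cathD and CtsB had means of 1844 ± 360.1, 1829 ± 371 and 1328 ± 329. The sterol transport genes Npc1a and Npc2a were lower, at 326 ± 21.6 and 308 ± 32.2, and the thioesterase gene Ppt1 was at 282 ± 41.1. Lip1, Lip3, Lip4 and GILT2 were above background on no array (3.46, 14.6, 10.4 and 14.2). The digestive enzyme list gave 2 of 21, the acid phosphatase Acph-1 (218 ± 23.1) and Jon74E, a protease near the bound (32.8 ± 9.06). A place in this list does not by itself make Acph-1 a gene of the gut. Of 9 ecdysone synthesis enzymes 0 were above background in all replicates. Of the iron storage genes, the ferritin heavy chain Fer1HCH read 11482, 7157 and 7866 and the light chain Fer2LCH had a mean of 505 ± 32.4.

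The detoxification families lay on both sides of the 47.7% of all genes above background. Of 81 cytochrome P450 genes, 26 (32.1%) were above background, with Cyp6a20 (1349 ± 496) and Cyp6a17 (1317 ± 670.3) the highest. In 17 of these 26 (65.4%) replicate 1 was highest, against 37.1% of all genes above background. Of 34 glutathione S-transferases 20 (58.8%) were above background, led by GstE6 at 4901, 4166 and 5791 and GstD1 at 3249, 2637 and 4030.4. Of 35 UDP-glycosyltransferases 4 (11.4%) were, led by Ugt302C1 (555 ± 333). Oxidant defence gave 8 of 13 (61.5%), with Gtpx (4111 ± 965), Sod2 (1815 ± 445) and Cat (752 ± 84.6) present and the extracellular dismutase Sod3 on no array (6.63).

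The small RNA pathways were present, including parts of the piRNA pathway, which silences transposons and is best known from the germline. Of 21 genes 17 (81.0%) were above background, against 47.7% of all genes. For small interfering RNAs, Dcr-2 read 433, 335 and 317 and its partner r2d2 142, 139 and 160.4. For microRNAs, drosha, pasha and loqs had means of 129 ± 19.4, 101 ± 32.4 and 109 ± 25.2. The piRNA genes krimp and aub read 944, 766 and 926 and 687, 626 and 590.5, both narrow, and AGO3 read 494, 191 and 148, with replicate 1 apart. The nuclear member piwi read 31.3, 17.99 and 12.5, above the bound on 1 array, and vas and qin on none (7.79 and 11.2).

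In gene families with tissue-restricted copies, levels differed between copies. All 26 standard proteasome subunits were above background, at means of 717 to 2913, with Prosbeta5 at 2381, 3048 and 3312. Of 14 copies whose names end in T or R forms, most of them known from testis, 1 was, Rpt3R, at 334, 194 and 215. Of the others, 12 were above background on no array, the highest being Prosbeta2R1 with a mean of 8.58. Replicate 1 was the lowest in 24 of the 26 standard subunits, against 36.3% of all genes above background, and the summed signal was 29853, 38786 and 42645.

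The cytoplasmic ribosomal protein genes with a probe set of their own were nearly all above background. Of these 36 genes 33 (91.7%) were, against 47.7% of all genes, and genes without such a probe set were not counted. A mean over 3000 was reached by 30 of them, the lowest at 3305. The remaining 6 were second copies. RpS19b read 176, 219.9 and 93.9, RpS5b read 189, 229.6 and 46.8, and RpS10a read 88.9, 65.5 and 44.8. RpS28a (10.7, 54.7 and 29.5) and RpL37-2 (30.1, 24.7 and 25.4) were above background on some arrays, and RpL10Aa on none (5.12). All 69 mitochondrial ribosomal proteins were above background, from 167 to 1793.

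The vacuolar proton pump, which acidifies lysosomes, had 15 of 30 genes (50%) above background, a share near the 47.7% of all genes. Vha26 read 11439, 8106 and 9548 and Vha16-1 read 8259.7, 6831 and 7609.9. Of the copies of the membrane arm, Vha100-1 (1321 ± 148) and Vha100-2 (961 ± 155) were high, Vha100-4 was near the bound (44.8 ± 10.99), and Vha100-3 and Vha100-5 were above it on no array (9.21 and 12.4). The cap-binding factor eIF4E1 read 1990.3, 1885 and 1929.6, and the copies eIF4E3, eIF4E4, eIF4E5 and eIF4E7 were above background on no array, the highest mean being 18.6 for eIF4E4. The adenine nucleotide translocase sesB read 9541, 8554 and 8845 and its copy Ant2 132, 182 and 462. Among tubulins, betaTub56D read 4483, 4966 and 6108, and betaTub85D of the testis was not above background (10.9).

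**Figure D4:**
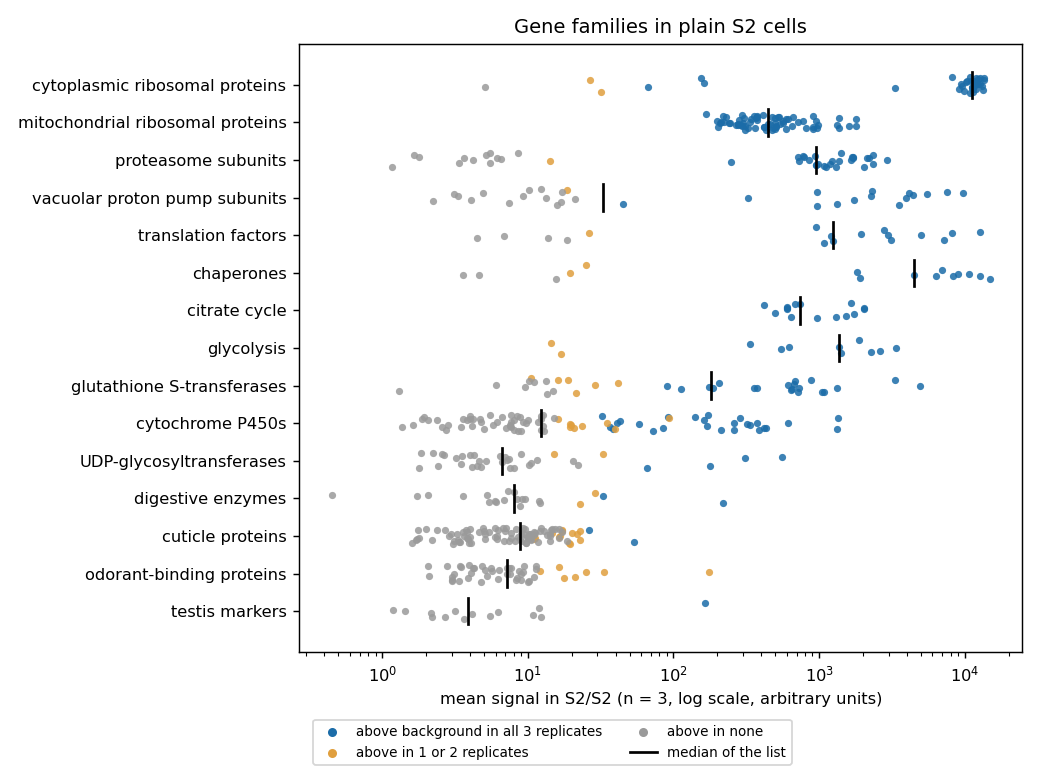
Mean signal (horizontal axis, log scale, arbitrary units, n = 3) of each member of 15 families and lists, with 1 dot per gene coloured by how many replicates were above background and a black bar at the median of the list. In the proteasome family the 26 standard subunits lie above all 14 copies, the proton pump family spans both ranges with 15 of 30 genes above background, 30 of 36 ribosomal proteins lie over 3000 with 6 copies spread below, and all 69 mitochondrial ribosomal proteins form 1 block.

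Genes of the basement membrane were mostly present. Of 11 extracellular matrix genes 10 (90.9%) were above background, against 47.7% of all genes. SPARC, a collagen-binding protein of hemocytes, read 4739, 3291 and 4416. The laminin chains LanA, LanB1 and LanB2 had means of 3926 ± 238, 922 ± 198 and 1995 ± 301. Nidogen, encoded by Ndg, was above background on no array (15.3). Of 11 cell death genes 8 (72.7%) were above background, led by the inhibitor Diap2 (940.2 ± 172). The death inducers grim and skl were not (2.88 and 13.5).

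Of 14 genes of dosage compensation and sex determination, 10 (71.4%) were above background, against 47.7% of all genes. Dosage compensation raises X-linked expression in males. The key subunit msl-2 read 297, 144 and 152, and the helicase mle and acetyltransferase mof had means of 303 ± 68.9 and 324 ± 102. Sxl, whose product is the female switch, also gave a signal of 227, 178 and 120.1, and the array does not tell its sex-specific splice forms apart here. The sex determination effector dsx was above background on no array (11.1).

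By position, the share of genes above background was alike on the large autosomal arms, at 46.9% on 2L, 47.5% on 2R, 46.99% on 3L and 47.7% on 3R. It was 47.7% on chromosome 4 and 51.3% on X. The X share moved between 44.8% and 54.3% with the background bound chosen. The count over all genes moved in the same direction, from 5077 to 6055. Shares of the other arms were not computed at these bounds. The median signal of genes above background was 206 on X and 261 to 282 on the 4 large autosomal arms. Of 7 Y genes measured, 0 were above background. No test was made of these differences.

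Genes above and not above background formed runs along the arms, ordered by the RefSeq gene table. The longest run of neighbouring measured genes that were above background on no array held 34 genes on 3R, from CG10280 to Osi18, with a highest mean of 11.7. It held 19 genes of the Osiris family, which is known from cuticle-forming epithelia. Of 24 Osiris genes measured anywhere, 22 were above background on no array and 2 on some. The next longest held 25 genes on 2L, from Lip4 to CG6431. The longest run of genes above background held 21 on 3R, from Itpr to Dph4 and including Vha26, and the next held 20 on 3R, from GluProRS to eIF4EHP and including Hsp68.

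The share above background varied with annotation. Genes known only by a CG or CR number were above background in 1808 of 5219 cases (34.6%), and genes with other names in 3905 of 6762 (57.7%). Even so, 115 numbered genes had a mean of 1000 or more. A further 4721 probe sets named no gene here, and 681 of them (14.4%) were above background. Of these unnamed probe sets, 196 had a mean of 1000 or more, the highest at 14582.5. They were not part of the ranking of genes by signal.

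The replicates differed more for replicate 1 than between the others. Over the 5713 genes above background, the SD of the log2 difference was 0.48 between replicates 1 and 2, 0.47 between 1 and 3, and 0.36 between 2 and 3. The median SD of a gene over the 3 replicates was 0.22 on the log2(signal + 32) scale, and 40 genes above background exceeded 1. Of 4613 genes with a mean of 100 or more, 80 were over 2-fold higher in replicate 1 than in both others and 50 over 2-fold lower. The same counts were 9 and 23 for replicate 2, and 6 and 46 for replicate 3.

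The 12 genes with the widest range included enzymes and immune genes. Pepck1, which makes glucose precursors, read 2302, 240.4 and 358, the transferase GstE9 read 2452, 206 and 592, and Cyp28d1 read 845, 61.8 and 57.98, all highest in replicate 1. The hemocyte gene He read 548, 60.6 and 61.99, the amino acid transporter path 1280.3, 116 and 439, and the transporter MFS3 1833, 326 and 246, again highest in replicate 1. The Imd inhibitor pirk read 109.8, 1782 and 1275, lowest in replicate 1, and Rel, puc and dl, given above, were lowest there too. Obp44a, an odorant-binding protein, read 28.5, 497 and 2.39 and so was high on 1 array only. NimB3 read 394, 111 and 15.7, CG16888 883, 78.2 and 68.5 and Fie 569.9, 64.6 and 32.1, and MtnA is described above. For these genes a mean over 3 arrays describes no single array well.

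**Figure D5:**
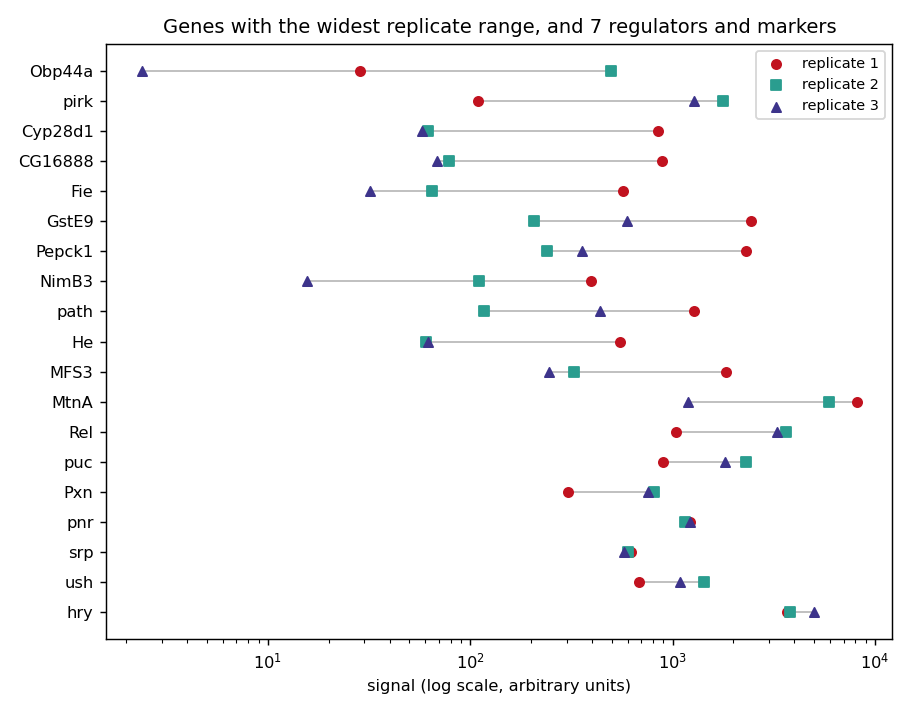
Signal in each replicate (horizontal axis, log scale, arbitrary units; 1 symbol per replicate, grey line from the lowest to the highest) of the 12 genes with the widest range between replicates, followed by 7 regulators and markers. In 10 of the 12 genes replicate 1 (circle) is the highest, and pnr and srp at the foot of the plot span a narrow range of 1152 to 1225 and 577 to 620.0.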

How the data were processed

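RNA of S2/S2 mixes was read on 3 arrays. The deposited values were linear signal intensities, 1 per probe set, and their trimmed mean was equal on all arrays as deposited. For the program that computed these intensities, a name and settings are not given in the sources used here. Of 18952 probe sets, 183 controls were left out, 13646 named 1 gene, 402 several and 4721 none. Gene names came from the platform annotation, updated through NCBI RefSeq's gene table, whose assembly is Release 6 plus ISO1 MT. Of 1094 genes with several probe sets, 217 had sets on both sides of the background bound, and the set with the highest mean was used.

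No test was made, since a single mix was described. Replicates pooled 2 independent samples each, so spreads are those between pools. Named genes were the 30 highest means, list members with the highest signals or not above background, the 12 widest ranges among means of 100 or more, and family members that stood apart. The lists and members were chosen with earlier results of these data known, and some name patterns were corrected after matching. Counts of list members cover only genes measured by a probe set of their own. Their shares are to be read against the 47.7% of all genes above background. The level rule was run on simulated data. Its silent genes were drawn, on each array separately, from the same receptor signals that set the bound. That run therefore cannot tell how often a silent gene passes. On the real arrays, 5 of the 165 receptor genes (3.03%) were above background in all 3 replicates and 12 in 1 or 2. Python 3.11.15, pandas 2.3.3, numpy 2.4.6 and matplotlib 3.10.9 were used. Alternatives changed the bound, the normalization, the probe set rule and the replicates.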

Additional observations from a re-analysis of the deposited data

How the results depend on the processing

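The background bound decides what counts as present. With the bound at the 90th or 99th percentile, or taken from control probe sets chosen for their low signal, the number of genes above background was 5913, 5077 or 6055 and the number above it on no array 4445, 6221 or 3758. Genes above background numbered, with the probe sets of a gene averaged by their median, 5629, and with 2 of 3 replicates enough 6089. Over all alternatives the listed transcription regulators above background numbered 91 to 112, the receptors 56 to 74 and the enzymes 176 to 203, so no count moved by over 1.5 times. The share of X genes above background was 53.02% at the 90th percentile, 44.8% at the 99th and 54.3% with the control bound, and 51.6% to 53.2% without 1 replicate. Shares of the other arms were not computed under these alternatives. The median spread between replicates was 0.24 with a log2 offset of 8 in place of 32, and 0.16 to 0.20 without 1 replicate, the lowest being without replicate 1. Of the 30 highest genes, 27 to 30 were shared with each alternative. Of 74 list medians, 9 moved beyond the replicate SD with the median probe set, 0 after quantile normalization, and 4, 9 and 7 without replicates 1, 2 and 3. Promoter motifs were not run, since no promoter sequences were used here. No paired analysis was possible because a single mix was described with no test. Genes near the bound are limited by signal over background, and a probe set that reads its gene poorly can place it in the background range.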

Other observations

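Further genes, named after their values were seen, add to the description. The autophagy genes Atg8a and ref(2)P, whose proteins mark and load autophagosomes, read 6979, 4639 and 4003 and 4566, 6514 and 6456 in replicates 1, 2 and 3. ImpL2, a secreted protein that binds insulin-like peptides, read 6617, 3657 and 4797. The membrane metalloproteinase gene Meltrin read 843, 1272 and 1275, while the inhibitor gene Timp was above background on no array (mean 6.86). The centromere histone cid was above background at 80.1, 90.5 and 46.9, and the histone variant His2Av at 2427, 2524 and 3344.

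Replicate 1 stood apart in several metabolic genes. The heme synthesis genes Alas and FeCH read 1453, 573 and 683 and 1388, 415 and 591. The leucine breakdown genes Mccc1, Mccc2 and Bcat read 419, 89.6 and 123, 677, 181 and 252 and 1875, 274 and 473, and glycogen phosphorylase, Glyp, read 1092, 236 and 229.7. All 6 were over 2-fold higher in replicate 1 than in both others. Virus-induced vir-1, at 1071, 2867 and 3260.4, and the cell surface gene Ama, at 73.7, 459.6 and 351, were over 2-fold lower there. The part of culture, extraction or hybridization in these differences was not tested.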
